A study of Mus musculus with 6 samples.

Results

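The T helper effector cytokines described here are 10 genes, Il2, Il4, Il5, Il13, Il17a, Il21, Ifng, Csf2, Tnf and Cd40lg, of the 22180 gene symbols measured in CD4+CD25+ regulatory T (Treg) cells. For each gene the probe set annotated to that symbol alone was taken, and where a gene had several, the brightest on average across the 6 arrays. All 10 were found, and only Csf2 had a further probe set. Gene expression was measured on GeneChip Mouse Gene 2.0 ST arrays, with 3 HDAC10−/− and 3 WT Treg samples labelled as independent. Both genotypes were labelled as female C57BL/6 mice aged 8 to 12 weeks. The methods place the HDAC10−/− line on a B6N background and give no substrain for WT mice, so substrain and genotype cannot be told apart. For isolation, spleen and peripheral lymph node cells were sorted with magnetic beads, with no stimulation described before RNA extraction. The deletion was in the mouse, not in Treg alone, so any other cell in the HDAC10−/− isolates lacked the gene as well.

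Conventional CD4+ T cells divide the work of help by the cytokines they secrete. Th1 cells make interferon-γ, Th2 cells make IL-4, IL-5 and IL-13, Th17 cells make IL-17A, and follicular helper cells make IL-21 and carry CD40 ligand, while IL-2, TNF and GM-CSF are shared by several subsets. Foxp3 keeps many of these genes low in Treg, most of all Il2, which Treg consume but hardly produce, and T cell receptor signals switch them on through NFAT, AP-1 and NF-κB.

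Hdac10, the deleted gene, had a log2 signal of 6.11, 6.22 and 6.22 in HDAC10−/− arrays and 9.03, 9.30 and 8.95 in WT arrays, so every array carried the Hdac10 level of its label. The 11 measured Treg markers, Foxp3 among them, had mean log2 signals between 9.17 and 12.6, and for none of them was the adjusted p from limma under 0.1. Values are log2 signals after robust multiarray average (RMA) normalization by the authors. Array medians ran from 6.18 to 6.24, and HDAC10−/− replicate 1 stood somewhat apart, with correlations of 0.995 with the other HDAC10−/− arrays, against 0.997 between those. The files hold no detection calls, so 33 genes of other tissues, such as Alb and Ins2, served as a rough guide to background. Their mean signals ran from 3.68 to 7.86, with a median of 5.79. Each probe set binds with its own strength, and signals are therefore not ranked between genes. The number of arrays limits the precision.

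No helper cytokine gene changed by the criteria of the study's methods, which combine an adjusted p under 0.1 with more than a 1.5-fold change (0 of 10 genes, against 0.424% of all 34472 probe sets higher and 0.261% lower, 0.685% in either direction). Smaller differences ran mostly one way. The log2 fold change was below 0 for 7 of the 10 genes (49.1% of all probe sets), with a median of −0.16 over the 10 and 0.00 over all probe sets. At an adjusted p under 0.1 with no fold minimum, Il2 alone fell in HDAC10−/− Treg (1 of 10 genes, against 0.757% of all probe sets). Il4 and Tnf lay just beyond that limit (adjusted p = 0.104 and 0.107 from limma), and Ifng lay farther out (0.131). For 6 genes all HDAC10−/− arrays lay below all WT arrays (10.9% of all probe sets), and for Csf2 they lay above (9.89%). At an unadjusted p under 0.05 there were 5 lower genes and 1 higher, against 6.95% and 7.73% of all probe sets. In bulk RNA, fewer cells expressing a gene and less RNA per cell cannot be told apart.

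**Figure D1:**
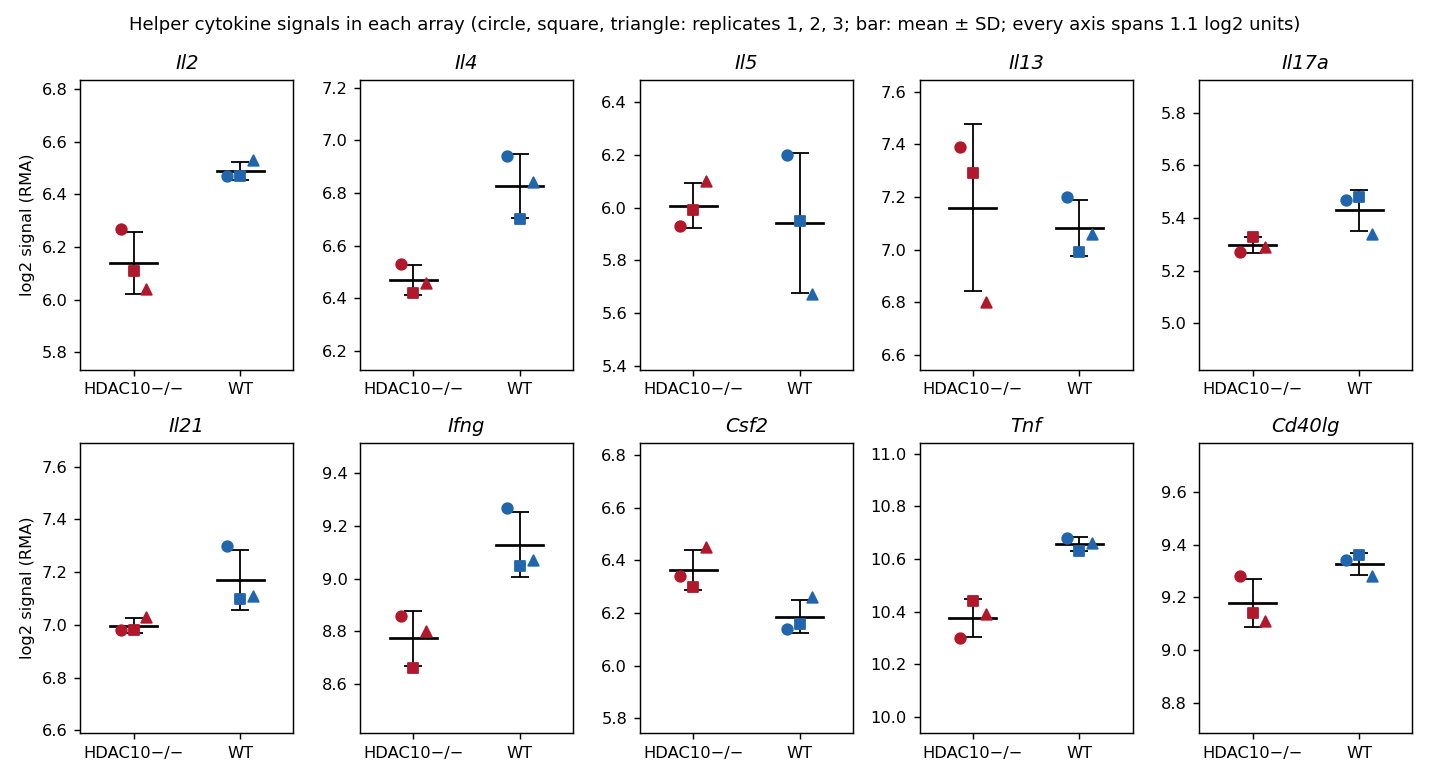
Log2 signal of the 10 helper cytokine genes in each HDAC10−/− array (red, left) and WT array (blue, right), with the mean and SD of 3 arrays as bars. In Il2, Il4, Ifng and Tnf the 3 HDAC10−/− arrays sit clearly below the 3 WT arrays, in Csf2 slightly above them, and in Il5, Il13 and Cd40lg the genotypes overlap.

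Il2 encodes the T cell growth factor. Its log2 signal was 6.27, 6.11 and 6.04 in HDAC10−/− arrays and 6.47, 6.47 and 6.53 in WT arrays. Every HDAC10−/− array was low, and replicate 1 lay nearest to WT. This is a 1.27-fold lower signal (95% confidence interval 1.13 to 1.44). On the log2 scale the difference was −0.35 ± 0.074 (standard error; adjusted p = 0.0998 from limma), and it ranked 675 by p among the 692 probe sets that passed. Values after ± in the text are standard errors. The signal was dim in both genotypes, with 7 of the 33 genes of other tissues at or above it.

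Il4, which drives Th2 differentiation and class switching in B cells, had 6.53, 6.42 and 6.46 in HDAC10−/− arrays and 6.94, 6.70 and 6.84 in WT arrays. The gap of 0.17 between the genotypes was wider than the range of the HDAC10−/− arrays but narrower than that of the WT arrays. The log2 fold change was −0.36 ± 0.077 (standard error; adjusted p = 0.104 from limma), which misses the limit by little, and 5 of the 33 genes of other tissues were at or above its mean signal. Ifng, the Th1 cytokine that activates macrophages, was well above the background guide, at 8.86, 8.66 and 8.80 in HDAC10−/− arrays and 9.27, 9.05 and 9.07 in WT arrays. Again no array of one genotype reached the other (log2 fold change −0.36 ± 0.086, adjusted p = 0.131 from limma). Tnf, an inflammatory cytokine gene that resting T cells also transcribe, had 10.30, 10.44 and 10.39 in HDAC10−/− arrays and 10.68, 10.63 and 10.66 in WT arrays. The WT arrays lay within a narrow band above the HDAC10−/− ones (log2 fold change −0.28 ± 0.061, adjusted p = 0.107 from limma).

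The calls of these 4 genes turned on the processing. The adjusted p of Il2 exceeded 0.1 with the methods' t-test after adjustment (0.195) and without any 1 array other than HDAC10−/− replicate 1 (0.218 to 0.294). Conversely, Il4 came under 0.1 with an intensity trend and the robust option, array weights, quantile normalization, median centring, only brighter probe sets or only probe sets with 1 symbol, with adjusted p from 0.0336 to 0.0880 in limma. Tnf did so in 5 of these 6 fits and Ifng in 4. Over all probe sets these fits put 0.647% to 6.25% lower at the same limit, against 0.757%. The log2 fold changes kept their sign in all 15 other fits of each of the 4 genes, from −0.42 to −0.25 for Il2, −0.42 to −0.26 for Il4, −0.40 to −0.26 for Ifng and −0.31 to −0.18 for Tnf.

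**Figure D2:**
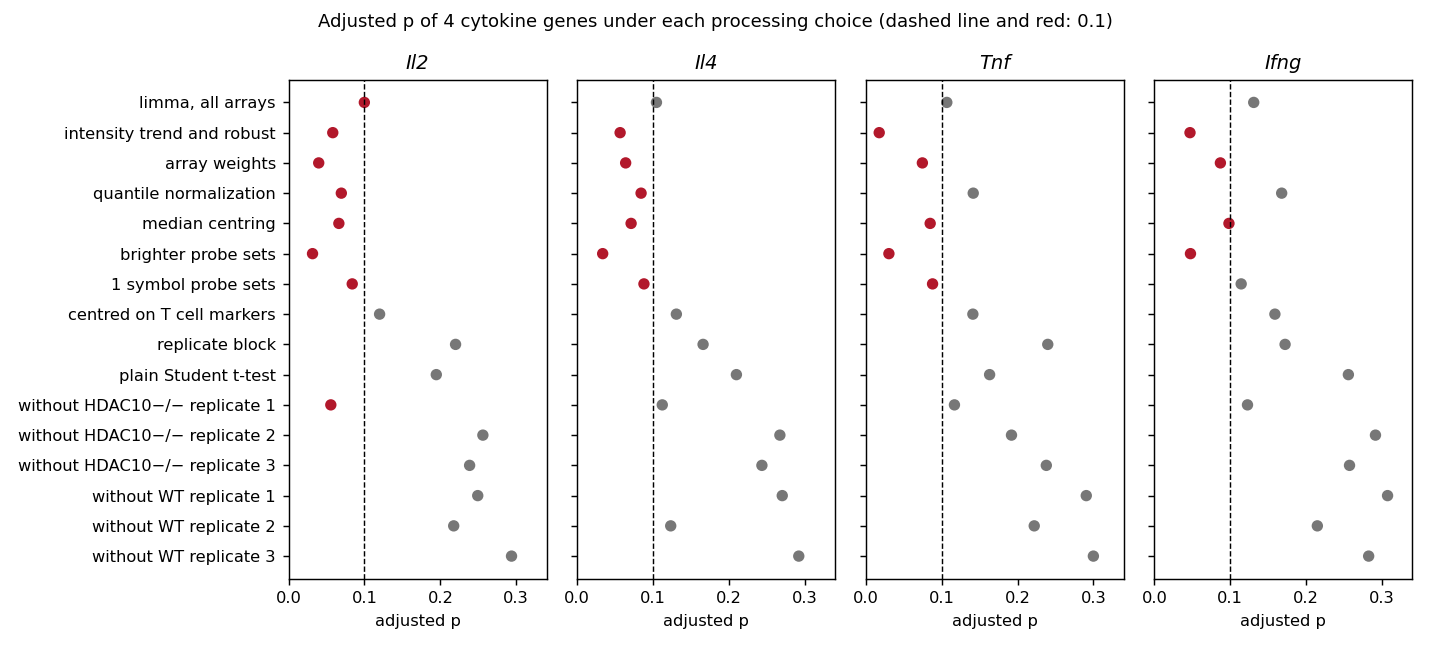
Adjusted p (x axis) of Il2, Il4, Tnf and Ifng under each processing choice (y axis), with the limit of 0.1 dashed and values under it in red. With any 1 array left out, Il4, Tnf and Ifng lie above the limit, and Il2 passes only without HDAC10−/− replicate 1. Of the other alternative fits, 4 to 6 put each gene below the limit.

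The promoters of these 4 genes are shown because they had the smallest p-values of the members and are all induced through NFAT. Each line gives 250 bases before and 50 after the transcription start, 5′ to 3′ on the strand of the gene, from RefSeq on GRCm38.p6. Capitals mark the NFAT core GGAAA, or TTTCC where it lies on the other strand, and the TATA box TATAAA. Il2 is at chr3:37125905-37126204 (minus strand), Il4 at chr11:53618616-53618915 (minus strand), Tnf at chr17:35201958-35202257 (minus strand) and Ifng at chr10:118440796-118441095 (plus strand).
Il2: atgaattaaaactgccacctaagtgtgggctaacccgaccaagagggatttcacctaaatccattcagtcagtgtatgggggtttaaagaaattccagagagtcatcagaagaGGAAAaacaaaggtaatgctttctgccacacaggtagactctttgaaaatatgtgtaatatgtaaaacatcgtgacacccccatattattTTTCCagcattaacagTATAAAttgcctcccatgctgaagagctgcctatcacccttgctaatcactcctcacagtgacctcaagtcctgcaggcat
Il4: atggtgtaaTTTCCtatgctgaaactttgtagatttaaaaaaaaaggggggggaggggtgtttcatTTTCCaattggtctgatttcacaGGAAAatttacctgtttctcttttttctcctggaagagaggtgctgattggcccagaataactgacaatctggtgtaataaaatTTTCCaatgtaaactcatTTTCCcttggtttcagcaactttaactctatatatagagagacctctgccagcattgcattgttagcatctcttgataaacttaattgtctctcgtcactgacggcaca
Tnf: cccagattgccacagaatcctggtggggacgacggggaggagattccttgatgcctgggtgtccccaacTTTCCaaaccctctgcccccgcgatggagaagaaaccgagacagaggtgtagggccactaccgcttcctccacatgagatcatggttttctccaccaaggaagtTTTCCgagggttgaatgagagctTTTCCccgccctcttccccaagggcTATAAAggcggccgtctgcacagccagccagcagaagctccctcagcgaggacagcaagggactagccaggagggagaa
Ifng: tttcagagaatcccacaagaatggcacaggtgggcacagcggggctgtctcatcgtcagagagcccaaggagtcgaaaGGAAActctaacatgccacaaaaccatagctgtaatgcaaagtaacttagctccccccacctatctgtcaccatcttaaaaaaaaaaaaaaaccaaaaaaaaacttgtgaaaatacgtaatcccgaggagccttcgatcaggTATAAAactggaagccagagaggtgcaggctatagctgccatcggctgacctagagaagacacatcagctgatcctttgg
Il4 held 5 NFAT cores, Tnf 3, Il2 2 and Ifng 1, while a second RefSeq promoter of Il4, downstream of the one shown, held 1. Il2, Tnf and Ifng held a TATAAA that began at positions −31, −29 and −30 from the start, and Il4 did not.

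Of the members, 9 had a RefSeq promoter of this length, Cd40lg being the other gene. Searched on both strands, 8 of the 9 held GGAAA, against 61.3% of all 32851 promoters, and 5 held 3 or more, against 9.42%. Those 5 were Il4, Il13, Il21, Csf2 and Tnf, with log2 fold changes of −0.36, 0.08, −0.17, 0.18 and −0.28 in that order. TATAAA was in 5 of 9 (13.6% of all promoters). The AP-1 site TGANTCA was found in Il17a alone (7.81%), and the NF-κB consensus in none (4.51%). A match is a string of letters and not a measured binding site.

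The Th2 genes Il4, Il13 and Il5 lie in 1 cluster on chromosome 11, with Csf2 farther along. The log2 fold changes of the other 3 were above 0. Il13, which drives mucus production and type 2 inflammation, had 7.39, 7.29 and 6.80 in HDAC10−/− arrays and 7.20, 6.99 and 7.06 in WT arrays. Its mean signal was reached or exceeded by 2 of the 33 genes of other tissues. The HDAC10−/− arrays spread around the WT values, with replicate 3 lowest of all 6 (log2 fold change 0.08, 95% confidence interval −0.28 to 0.43, adjusted p = 0.861 from limma). Il5, the eosinophil growth factor gene, had 5.93, 5.99 and 6.10 in HDAC10−/− arrays and 6.20, 5.95 and 5.67 in WT arrays, with 12 of the 33 genes of other tissues at or above its mean. Its WT arrays enclosed the HDAC10−/− ones (log2 fold change 0.07, −0.24 to 0.37, adjusted p = 0.859 from limma). Csf2 encodes GM-CSF, a growth factor for myeloid cells. Its brighter probe set had 6.34, 6.30 and 6.45 in HDAC10−/− arrays and 6.14, 6.16 and 6.26 in WT arrays, which is a small gap in the other direction (log2 fold change 0.18 ± 0.068, adjusted p = 0.294 from limma). Of the genes of other tissues, 7 were at or above the mean of this probe set. The dimmer Csf2 probe set did not share it, with 5.02, 4.94 and 4.87 in HDAC10−/− arrays and 5.30, 5.01 and 4.79 in WT arrays (log2 fold change −0.09, adjusted p = 0.795 from limma).

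Within each array the log2 signal of Il4 was also set against those of Il13 and Csf2. Il4 minus Il13 was −0.86, −0.87 and −0.34 in HDAC10−/− arrays and −0.26, −0.29 and −0.22 in WT arrays. Il4 minus Csf2 was 0.19, 0.12 and 0.01 in HDAC10−/− arrays and 0.80, 0.54 and 0.58 in WT arrays. The genotypes did not overlap in either pair. Both pairs share Il4 and were chosen after their values were seen, so these values are a description and no test is given. In Il2 minus Il21, whose genes are adjacent on chromosome 3, the genotypes overlapped.

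Il21 encodes the follicular helper cytokine that supports germinal centre B cells. It had 6.98, 6.98 and 7.03 in HDAC10−/− arrays and 7.30, 7.10 and 7.11 in WT arrays. Of the 33 genes of other tissues, 3 were at or above its mean signal. The gap between genotypes was only 0.07 (log2 fold change −0.17 ± 0.072, adjusted p = 0.329 from limma). Without WT replicate 1, the highest WT array, the log2 fold change was smaller, at −0.11. Il17a, which recruits neutrophils through epithelial cells, had 5.27, 5.33 and 5.29 in HDAC10−/− arrays and 5.47, 5.48 and 5.34 in WT arrays. These groups differed by 0.01 at their nearest values (log2 fold change −0.13 ± 0.063, adjusted p = 0.389 from limma), and 22 of the 33 genes of other tissues had a mean signal as high, so this signal cannot be told from background. Cd40lg, the membrane ligand that helper T cells use to license B cells and dendritic cells, was bright, at 9.28, 9.14 and 9.11 in HDAC10−/− arrays and 9.34, 9.36 and 9.28 in WT arrays. HDAC10−/− replicate 1 tied with WT replicate 3 (log2 fold change −0.15 ± 0.067, adjusted p = 0.363 from limma).

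The confidence intervals of all 10 genes stayed within 1.5-fold in both directions. The widest downward bound was that of Ifng, at −0.56, and the widest upward bound that of Il13, at 0.43 on the log2 scale. In 6 of the other 15 fits the interval of Ifng, and in 2 also that of Il4, reached 1.5-fold lower, and that of Il13 reached 1.5-fold higher in 1, the methods' t-test.

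**Figure D3:**
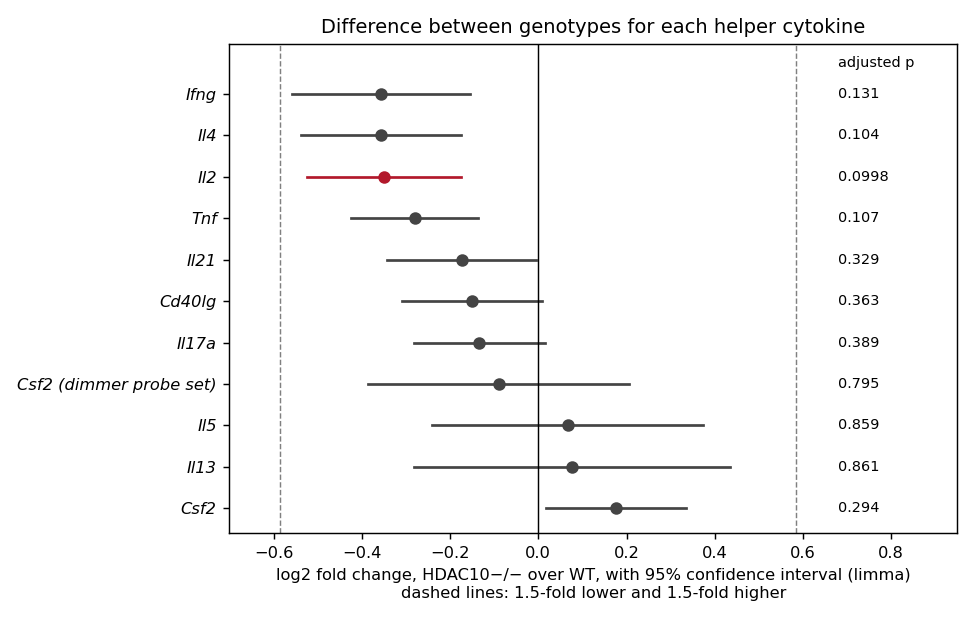
Log2 fold change of HDAC10−/− over WT Treg for each gene (point) with its 95% confidence interval (line), from limma with 3 arrays per genotype, and the adjusted p at right. Only Il2 (red) is under 0.1, and every interval lies within the dashed 1.5-fold lines.

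Other cytokine genes of T cells showed the same direction more often than not. Of 13 measured, 1 passed an adjusted p under 0.1, 9 had a log2 fold change below 0, and the median was −0.25. Over all probe sets 0.757% passed lower and 49.1% were below 0. The gene that passed was Ltb, which encodes lymphotoxin-β of lymphoid organ development, at 11.46, 11.45 and 11.42 in HDAC10−/− arrays and 11.72, 11.71 and 11.72 in WT arrays. Ltb fell by 0.27 on the log2 scale (standard error 0.053, adjusted p = 0.0782 from limma). It lies beside Tnf on chromosome 17, with Lta on the other side of Tnf. Lta had a log2 fold change of −0.26 (adjusted p = 0.207 from limma), so all 3 lymphotoxin and TNF genes had HDAC10−/− arrays below WT arrays, although the next gene, Lst1, a gene of myeloid cells, rose by 0.45 (adjusted p = 0.0636 from limma). Lta and Lst1 were singled out after their values were seen. The calls of Ltb and Lst1 were lost without any 1 array other than HDAC10−/− replicate 1, that of Ltb also with quantile normalization and that of Lst1 with the methods' t-test.

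None of 16 receptor chains for these cytokines passed. The smallest p-values were those of Il5ra and Il13ra1, the receptor chains for IL-5 and IL-13, with log2 fold changes of 0.27 and 0.42 (adjusted p = 0.103 and 0.105 from limma). The GM-CSF receptor genes, named after their values were seen, had 0.31 (Csf2ra), 0.45 (Csf2rb) and 0.69 (Csf2rb2), with adjusted p from 0.118 to 0.208 in limma. These 5 chains are also carried by myeloid cells. The IL-2 receptor chains Il2ra and Il2rb had 0.08 and −0.01.

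Of 14 measured factors of the helper lineages none passed. The smallest p-values were those of Runx3, a Th1 factor, and Batf, an AP-1 factor of Th17 and follicular helper cells, with 0.18 and −0.18 (adjusted p = 0.249 and 0.268 from limma). The lineage factors Tbx21 of Th1 and Gata3 of Th2 had −0.05 and −0.04. Of 13 factors that act downstream of the T cell receptor none passed either, but 10 had a log2 fold change below 0 (median −0.11), and in 7 the HDAC10−/− arrays lay below the WT arrays. The shares of all probe sets were 49.1% and 10.9%. Jun, an AP-1 subunit, had −0.29 (adjusted p = 0.190 from limma), and the early growth response gene Egr1 had −0.19 (adjusted p = 0.212 from limma). The NFAT genes Nfatc1, Nfatc2 and Nfatc3 had 0.01, 0.02 and −0.01.

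Among genes induced by the cytokines themselves, 2 of 18 interferon-γ targets rose and none fell. They were Irf8 (log2 fold change 0.33 ± 0.061, adjusted p = 0.0706 from limma) and Ciita, the MHC class II transactivator gene (0.28, standard error 0.057, adjusted p = 0.0906), both also expressed in myeloid and B cells. Both calls were lost with the methods' t-test and without any 1 array, except that Irf8 passed without HDAC10−/− replicate 1. That of Ciita was also lost with median centring and quantile normalization. The median of the 18 was −0.04, with 12 below 0 (49.1% of all probe sets). In 7 the HDAC10−/− arrays lay below the WT arrays and in 2 above, against 10.9% and 9.89% of all probe sets. The summed linear signal was 15451 to 15741 in HDAC10−/− arrays and 15793 to 16091 in WT arrays. None of 10 targets of IL-2 and IL-4 through STAT5 and STAT6 passed (median −0.02), with Pim1 and Cish at −0.14 and −0.11 (adjusted p = 0.371 and 0.426 from limma). None of 10 TNF targets passed (median −0.07), with Traf1 and Relb at −0.18 and −0.12 (adjusted p = 0.215 and 0.426 from limma). In all, 2 of 91 related genes rose and 1 fell, against 1.25% and 0.757% of all probe sets.

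**Figure D4:**
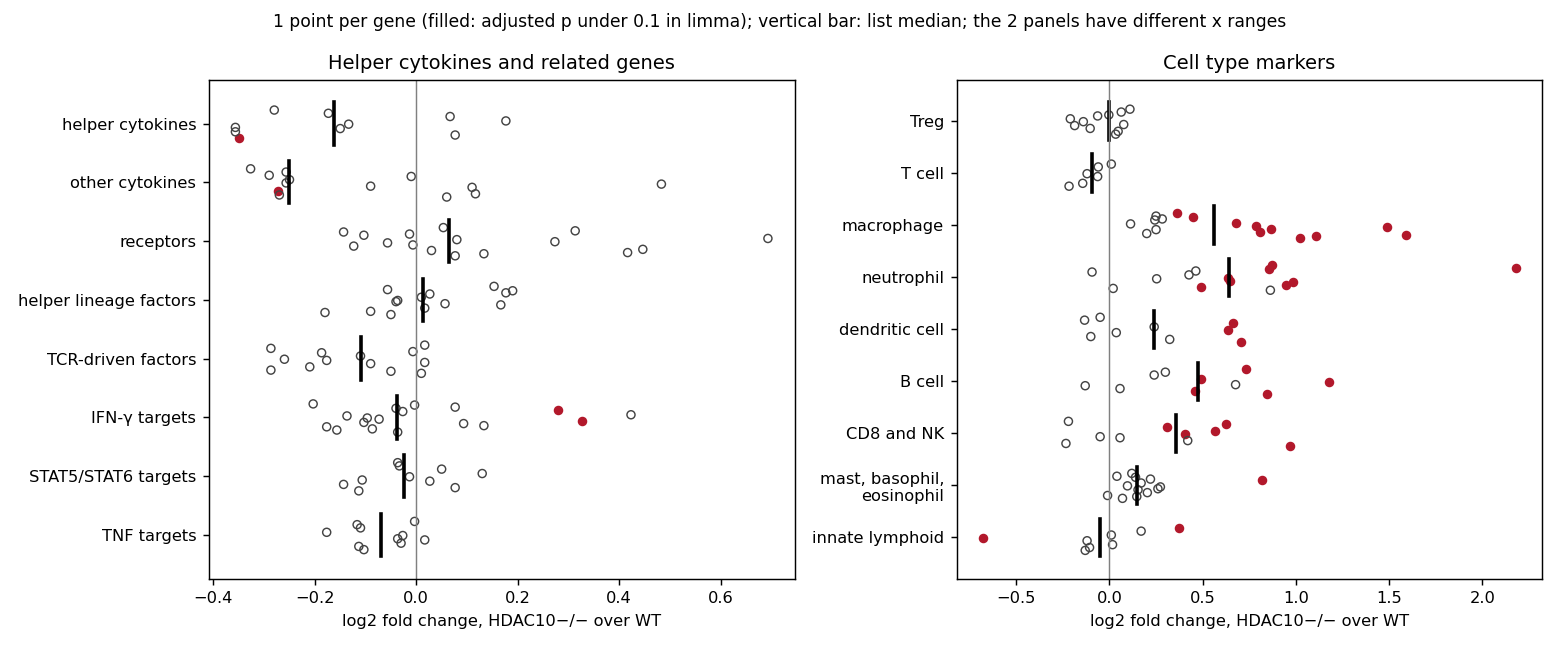
Log2 fold change of HDAC10−/− over WT Treg (x axis) for each gene of the cytokine lists (left) and of the cell type marker lists (right), filled where the adjusted p in limma was under 0.1, with list medians as bars. The cytokine lists have medians of −0.16 and −0.25, while macrophage and neutrophil markers have medians of 0.56 and 0.64.

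Markers of several other cell types also differed between the genotypes. Over all probe sets 1.25% rose and 0.757% fell at an adjusted p under 0.1. Of 16 macrophage markers 10 rose and none fell, and their summed linear signal was 3923 to 4353 in HDAC10−/− arrays and 2969 to 3078 in WT arrays. Neutrophil markers rose in 8 of 14, with sums of 1181 to 1508 in HDAC10−/− arrays and 818.9 to 853.1 in WT arrays. Markers of CD8 T and NK cells, which include producers of interferon-γ, rose in 5 of 10 (3956 to 4642 in HDAC10−/− arrays, 3691 to 3822 in WT arrays). Among these 10 markers, 3 had log2 fold changes below 0. B cell markers rose in 5 of 10, although their sums overlapped (9913 to 10115 in HDAC10−/− arrays, 9541 to 10093 in WT arrays), and dendritic cell markers in 3 of 9 (1915 to 2335 in HDAC10−/− arrays, 1848 to 1962 in WT arrays). No signal is 0 on this scale, so no marker could be read as absent. Of 14 markers of mast cells, basophils and eosinophils, cells that also make IL-4 and IL-13, 1 rose, Ccr3, with summed signals of 1196 to 1420 in HDAC10−/− arrays and 1060 to 1092 in WT arrays. Of 8 innate lymphoid cell markers, several of them shared with T cells, Klrg1 rose by 0.37 on the log2 scale (adjusted p = 0.0679 from limma) and Il23r, the IL-23 receptor gene that Th17 cells also use, fell by 0.68 (adjusted p = 0.0413). Both calls were lost with the methods' t-test and without HDAC10−/− replicates 2 or 3 or WT replicates 1 or 3, and that of Klrg1 also without WT replicate 2. Il23r had 6.96, 7.22 and 7.14 in HDAC10−/− arrays and 7.82, 7.60 and 7.93 in WT arrays. T cell markers ran the other way from the myeloid ones: none of 6 passed, their median was −0.09, and their sum was 25037 to 25121 in HDAC10−/− arrays and 26611 to 26837 in WT arrays. The 11 Treg markers did not share this shift as a set, with a median of −0.003, 5 above 0 and 6 below. Their sums overlapped, at 32121 to 34251 in HDAC10−/− arrays and 32561 to 33620 in WT arrays. The summed signal of the 10 cytokine genes was 2931 to 2991 in HDAC10−/− arrays and 3407 to 3610 in WT arrays. Such sums weigh bright genes most, here Tnf, Cd40lg and Ifng, and in the B cell sum Ighm (log2 fold change −0.13). Of the 10 cytokine genes, 3 had log2 fold changes above 0. The part of the marker shifts in the cytokine values was not tested. With each array centred on the 6 T cell markers, a scaling chosen after the data were seen that moved the median of all probe sets by 0.10, the log2 fold changes were −0.25 for Il2, −0.26 for Il4, −0.26 for Ifng and −0.18 for Tnf (adjusted p from 0.120 to 0.159 in limma), and that of Csf2 was 0.28 (adjusted p = 0.0791). Under that scaling 7.68% of all probe sets were higher at an adjusted p under 0.1, against 1.25% without it. The median log2 fold change of the 10 genes was −0.06 with it and −0.16 without it. Il21, Cd40lg and Il17a were then at −0.07, −0.05 and −0.03, and Il5 and Il13 at 0.17 and 0.18.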

How the data were processed

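Per the labels and the study's methods, the log2 signals that the authors deposited came from Transcriptome Analysis Console 4.0, with RMA across the 6 arrays. RMA with quantile scaling hides a change common to all genes. The values of all 34472 probe sets were used as they stand, and 23521 were paired with exactly 1 gene symbol in the platform annotation. The genotypes were compared with limma 3.58.1 (R 4.3.3), two-sided, without intensity trend, with Benjamini-Hochberg adjustment over all probe sets, and the fit was tested on simulated data. The members and gene lists were chosen with earlier results of these data known. Named genes were the 10 members, Hdac10, and of each related list the genes at an adjusted p under 0.1 or else the 2 with the smallest p. Other genes were named for their known roles or after their values were seen. Alternatives were the methods' t-test (a plain Student t-test on the deposited values; its settings in the authors' software are not given in the sources used here), other variance models, scalings and filters, a replicate block, a stricter threshold and each array left out. Promoters were read from a RefSeq table on GRCm38.p6, a build not matched to the arrays.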

Additional observations from a re-analysis of the deposited data

How the results depend on the processing

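The count of members past both thresholds was 0 in every alternative run. The count of members at an adjusted p under 0.1 was 1. It was 0 with the methods' t-test and with a replicate block, 2 with quantile normalization, 3 with probe sets of 1 symbol, 4 with an intensity trend, array weights, median centring or brighter probe sets (8 members tested, without Il5 and Il17a), and 0 to 1 when 1 array was left out. Over all probe sets tested, the share lower at that limit was 0.757%, and it was 0.284% with the t-test, 0.203% with the block, 0.647% with quantile normalization, 0.833% with probe sets of 1 symbol, 2.57% with the trend, 1.65% with weights, 1.21% with median centring and 6.25% with brighter probe sets. The cause was not tested.

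Over all probe sets, 146 were called higher and 90 lower, with 20 and 26 by the methods' t-test, 96 and 60 with a replicate block and 99 and 33 for probe sets of 1 symbol. The t-test counts come from the test as run here on the deposited values and are not the study's own counts. Leaving out 1 array gave 68 to 177 higher and 58 to 106 lower ones. Of the related genes, 2 passed higher and 1 lower. The t-test gave 0 and 1, the block 0 and 0, and leaving out 1 array 0 to 2 and 0 to 3. In fits added after the data were seen, array weights gave 5 and 3, an intensity trend 6 and 11, brighter probe sets 8 and 12, probe sets of 1 symbol 5 and 1, median centring 1 and 1, and quantile normalization 1 and 0. The share of all probe sets higher was 2.21% with weights, 2.52% with the trend and 5.36% with brighter ones, against 1.25%.

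Of the members, the sign turned for Il5 without WT replicate 3 and for Il13 without HDAC10−/− replicate 1. With 1 array left out, Il5 ran from −0.068 to 0.20 and Il13 from −0.038 to 0.26 on the log2 scale, with no adjusted p under 0.1. The mean of both Csf2 probe sets had a log2 fold change of 0.04. With the block, the adjusted p of Il2 was 0.220, and the calls of Ltb, Lst1, Irf8, Ciita, Il23r and Klrg1 were lost, while that of Ccr3 held. Deviations of same-numbered arrays from their group means correlated at −0.003, 0.001 and −0.024. These values show no shared shift but cannot tell whether the arrays were processed in pairs.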

Other observations

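Around the members, 43 other genes were measured among the 3 nearest on each side in RefSeq order. Of these, 2 passed an adjusted p under 0.1 in limma, Ltb and Lst1 beside Tnf, and the median log2 fold change was −0.01. HDAC10−/− arrays lay below WT arrays in 6 of the 43 and above them in 3, against 10.9% and 9.89% of all probe sets. The 6 lower ones were Septin8 near Il4 (−0.27), Il22 and Iltifb near Ifng (−0.26 and −0.22, with mean signals of 2.45), Pdlim4 near Csf2 (−0.13), and Ltb and Lta beside Tnf. The 3 higher ones were Adad1 beside Il2 (0.10), and Lst1 and Aif1 near Tnf (0.45 and 0.31). These genes were named after their values were seen.

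The 2 chains of IL-35, a cytokine ascribed to Treg, had opposite signs. Il12a had 6.70, 6.58 and 6.68 in HDAC10−/− arrays and 6.40, 6.13 and 5.98 in WT arrays (log2 fold change 0.48, adjusted p = 0.115 from limma). Ebi3 had 9.55, 9.39 and 9.42 in HDAC10−/− arrays and 9.79, 9.65 and 9.73 in WT arrays (log2 fold change −0.27, adjusted p = 0.154 from limma). Neither passed, and both were singled out after their values were seen.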
